A study of Arabidopsis thaliana with 6 samples.

Results

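The messenger RNAs described here come from 42 genes of the plastid genome of Arabidopsis thaliana, and were counted in seedlings that had been moved to light after growth in darkness. The members were listed by their plastid locus identifiers, by a rule on gene function that uses no measured value, though earlier results of these data were known when the list was made. They make up 42 of the 36917 genes in the deposited table and 42 of its 133 plastid identifiers. They fall into 12 ndh genes, 21 genes of ribosomal proteins and 9 other genes, the last being matK, accD, clpP, ycf1, ycf2, ycf3, ycf4, cemA and ccsA. The genes of the plastid RNA polymerase subunits were left out. The member list states that its first 12 identifiers are the ndh genes. For 4 of the other 30, notes in the RefSeq annotation of TAIR10.1 give the product, and the class of the remaining 26 follows the locus naming of the organism, which no table used here could check. Members are therefore called by identifier and class, and by product only where such a note exists.

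The libraries labelled bbx14-1 (3 samples) were compared with libraries labelled WT, the Col-0 wild type (3 samples). BBX14 is a B-box zinc-finger transcription factor, and Col-0 is also the background given for the bbx14-1 line; the nature of the allele is not given in the sources used here. Both groups were stratified for 3 days, given 2 h of white light at 100 µmol photons per square metre and second, kept in darkness for 3 days and then in light for 1 day, without sucrose in the medium. Total RNA was freed of ribosomal RNA and made into directional libraries from random primers, so plastid transcripts without a poly(A) tail were counted. Nothing in the labels says that samples of a group were grown separately, so some of the variation among these 6 samples may be technical. Each p-value is set by that variation, in the gene itself and, through a trend on the mean level, over all genes tested.

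The ndh genes encode the plastid-made subunits of the NDH complex, a thylakoid enzyme that takes electrons from ferredoxin and passes them to plastoquinone, in cyclic electron flow around photosystem I. The ribosomal proteins belong to the bacterial-type ribosome that translates plastid messages, and the nucleus supplies the rest of that ribosome and of the NDH complex. The other genes serve varied tasks: matK encodes a maturase of group II introns, accD a subunit of acetyl-CoA carboxylase for fatty acid synthesis, clpP a subunit of the Clp protease, ycf3 and ycf4 assembly factors of photosystem I, cemA an envelope membrane protein and ccsA a factor of cytochrome c assembly, while ycf1 and ycf2 encode large envelope proteins. Plastid genes are transcribed by a plastid-encoded and a nucleus-encoded RNA polymerase, largely as units of several genes.

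The BBX14 message (AT1G68520) was not reduced under the bbx14-1 label: those libraries held 649, 761 and 892 normalized counts, against 540, 683 and 517 in the WT libraries (log2 fold change 0.40, SE 0.13, limma adjusted p = 0.0726). The group label therefore was not checked by this message, and each direction below rests on the label alone. Recovered library totals were 25505859 to 32621183 reads in libraries labelled bbx14-1 and 20939505 to 32064650 reads in WT libraries. Plastid genes took 49.6% to 56.7% of the reads in libraries labelled bbx14-1 and 52.6% to 55.9% in WT libraries. Green-tissue markers (RBCS1A, RBCS3B and CAB1) were high in all 6 libraries, summing to 472843 to 606977 normalized counts in libraries labelled bbx14-1 and 493066 to 540466 in WT libraries. A list of 3 seed reserve genes was lower, at a sum of 45.1 to 58.0 normalized counts in libraries labelled bbx14-1, against 98.8 to 567 in WT libraries; SESA1 was at 0 in all libraries except WT replicate 1. The 4 root markers summed to 1556 to 1651 normalized counts in libraries labelled bbx14-1 and 1625 to 1982 in WT libraries. Among them, TIP2;3 was lower in every library labelled bbx14-1 (1107 to 1168, against 1290.1 to 1505 in WT libraries). SHV2 was higher in every library labelled bbx14-1 (46.4 to 73.1, against 5.05 to 35.2 in WT libraries). CASP1 and EXPA7 overlapped between groups. The 2 epidermis markers summed to 3880.2 to 4955 in libraries labelled bbx14-1 and 3516 to 3919 in WT libraries. PDF1 was higher in every library labelled bbx14-1 (1538 to 2177, against 1304 to 1519.9 in WT libraries). ATML1 overlapped between groups (2342 to 2778 in libraries labelled bbx14-1, against 2212 to 2399 in WT libraries). The part of these seed, root and epidermis messages in the results was not tested.

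All 42 members passed the filter of a mean of at least 10 normalized counts. The libraries labelled bbx14-1 held more of 7 members and less of none at an adjusted p under 0.05, the threshold used throughout (limma on log2(normalized count + 1), Benjamini-Hochberg over all 19003 genes tested). Those 7 were 0 of 12 ndh, 5 of 21 ribosomal and 2 of 9 other members, or 7 of 30 when the last classes are joined. Over all genes tested, 477 were called higher, which is 2.51%, and 406 lower, which is 2.14%. The calls rest on the trend in the variances, since without it 28 genes in all and 0 members were called. Of the 76 plastid genes tested that are no members, 9 were called higher, or 11.8%, and none lower. In total RNA from whole samples, more plastids or cells and more RNA per plastid cannot be told apart.

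The direction was shared more widely than the calls. The fold change was above 0 for 38 of 42 members, against 50.5% of all genes tested, and for 57 of the 76 other plastid genes. The median log2 fold change was 0.16 over the ndh members, 0.28 over the ribosomal members and 0.20 over the other members, beside 0.09 over the plastid genes that are no members and 0.0029 over all genes. Without an adjustment, p was under 0.05 for 3 of 12 ndh, 15 of 21 ribosomal and 4 of 9 other members, beside 16.7% of all genes tested; with so few ndh members, a count of 3 is near that share. Differences between the classes in how many members were called were not tested.

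**Figure D1:**
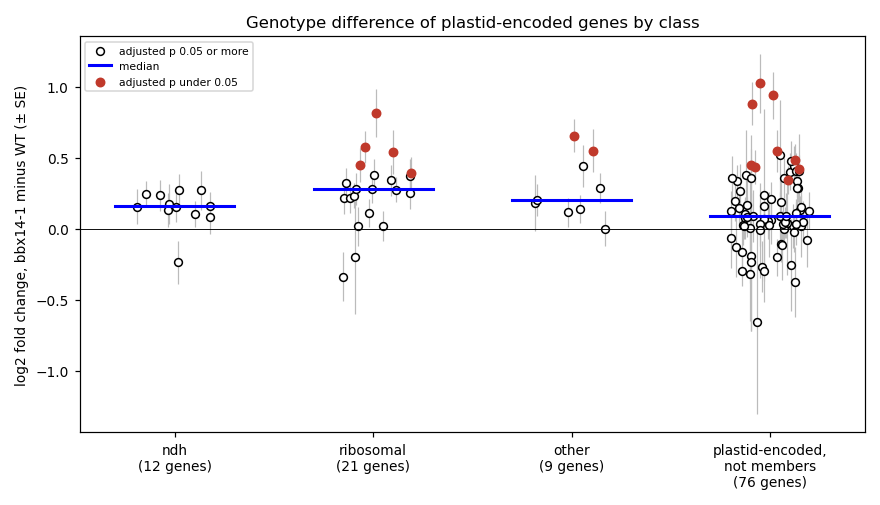
Each point is the log2 fold change of 1 plastid gene, libraries labelled bbx14-1 minus WT, with its SE as a grey line; filled points passed an adjusted p under 0.05 and the blue bar is the median of the class. Filled points stand in the ribosomal class (5 of 21), the other class (2 of 9) and the remaining plastid genes (9 of 76), and none in the ndh class.

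No ndh member passed the test, and for all 12 the groups overlapped. Their log2 fold changes ran from -0.24 to 0.27, with adjusted p-values from 0.161 to 0.801, and 11 of 12 were above 0. The standard errors were 0.09 to 0.15, so differences of this size were not detectable for a single ndh gene with 3 libraries a group, which does not show that the levels were alike.

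ATCG01050 had the highest count among the ndh members, with 110164, 135241 and 110528 normalized counts in libraries labelled bbx14-1, against 120473, 96329 and 98854 in WT libraries (log2 fold change 0.17, SE 0.14, limma adjusted p = 0.601). WT replicate 1 lay above both the first and the last library labelled bbx14-1, so only bbx14-1 replicate 2 stood clear. ATCG01100 had 74589, 85673 and 68819 normalized counts in libraries labelled bbx14-1, against 74394, 63788 and 67104 in WT libraries (0.16, SE 0.12, limma adjusted p = 0.594). ATCG01080 had 34645, 40899 and 31239 in libraries labelled bbx14-1, against 36458, 27752 and 33372 in WT libraries (0.13, SE 0.12, limma adjusted p = 0.65). In both, bbx14-1 replicate 2 was the highest library and WT replicate 2 the lowest, and the remaining 4 libraries were mixed.

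The largest log2 fold changes among the ndh members were those of ATCG01090 and ATCG01070, both 0.27. ATCG01090 had 22091, 28256 and 21834 normalized counts in libraries labelled bbx14-1, against 21889, 18173 and 19358 in WT libraries (SE 0.11, limma adjusted p = 0.179). ATCG01070 had 21722, 29739 and 19262 in libraries labelled bbx14-1, against 23938, 15946 and 18593 in WT libraries (SE 0.14, limma adjusted p = 0.334). Again the pair of libraries numbered 2 gave the extremes.

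A pair of ndh identifiers carried few reads next to the others. ATCG00890 averaged 1340 ± 266 normalized counts in libraries labelled bbx14-1 and 1255 ± 76.7 in WT libraries, and ATCG01250 averaged 215 ± 13.3 in libraries labelled bbx14-1 and 255 ± 34.9 in WT libraries (SD, n = 3 each). ATCG01250 was the ndh member with a fold change below 0, at -0.24 (SE 0.15, limma adjusted p = 0.473). The other 10 averaged between 9698 and 118644 normalized counts in either group. RefSeq annotates 11 ndh symbols in the plastid genome, 1 of them, ndhB, at 2 places with the same sequence. For ATCG00430 the reference note reads photosystem II reaction center protein G, while the member list puts it with the ndh genes; it averaged 27616 ± 2085 normalized counts in libraries labelled bbx14-1 and 24737 ± 1291 in WT libraries (SD, n = 3 each) and differed by 0.16 on the log2 scale (limma adjusted p = 0.465).

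Among the 21 ribosomal members, 5 were higher in the libraries labelled bbx14-1, and 19 had a fold change above 0. The groups did not overlap for 8 of them, with 7 higher and 1 lower, against 10.4% of all genes tested with no overlap and higher, and 10.6% with no overlap and lower.

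ATCG00830 showed the largest ribosomal difference, with 243, 314 and 259 normalized counts in libraries labelled bbx14-1, against 176, 126 and 162 in WT libraries (log2 fold change 0.82, SE 0.17, limma adjusted p = 0.00417). ATCG00650 had 8821, 12586 and 8584 in libraries labelled bbx14-1, against 7057, 6312 and 6456 in WT libraries (0.58, SE 0.11, limma adjusted p = 0.00238). For both, every library labelled bbx14-1 was above every WT library, and both stayed past the threshold whichever library was left out (limma adjusted p at most 0.0384 and 0.0168). Some ribosomal genes lie in sequence that occurs again in the plastid genome, where reads could be split or dropped. Whether ATCG00830, with its few reads, is one of them could not be checked here.

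The other 3 ribosomal members lay nearer to the threshold. ATCG00050 had 2367, 3053 and 2007 normalized counts in libraries labelled bbx14-1, against 1839, 1559 and 1990 in WT libraries (0.45, SE 0.12, limma adjusted p = 0.0277). Its lowest library labelled bbx14-1 and its highest WT library were nearly level. ATCG00800 had 15403, 18340 and 12418 in libraries labelled bbx14-1, against 11778, 11017 and 11942 in WT libraries (0.39, SE 0.11, limma adjusted p = 0.0374). ATCG01020 had 9774, 14491 and 8271 in libraries labelled bbx14-1, against 8772, 5441 and 8002 in WT libraries (0.54, SE 0.16, limma adjusted p = 0.0454). For this last gene the groups overlapped, since WT replicate 1 lay above bbx14-1 replicate 3. ATCG00050 and ATCG01020 kept the call in 2 and ATCG00800 in 1 of the 6 fits that leave out a library, which have fewer samples. Several lost calls came with a fold change as large as before, such as 0.41 for ATCG00800 and 0.47 for ATCG00050 without WT replicate 1, and 0.61 for ATCG01020 without WT replicate 3 (limma adjusted p = 0.126, 0.0869 and 0.0622). Their log2 fold changes were smallest without bbx14-1 replicate 2, at 0.29, 0.31 and 0.26 (ATCG00050, ATCG01020 and ATCG00800; limma adjusted p = 0.207, 0.299 and 0.23), and without WT replicate 2 that of ATCG01020 was 0.33 (limma adjusted p = 0.259).

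The remaining 16 ribosomal members had log2 fold changes from -0.34 to 0.38 and adjusted p-values from 0.0556 to 0.971. ATCG00330 carried the most reads, with 136915, 129040 and 133915 normalized counts in libraries labelled bbx14-1, against 123444, 134386 and 137635 in WT libraries (0.02, SE 0.14, limma adjusted p = 0.971). The groups were fully mixed, and the sign of this small difference turned under quantile normalization and with plastid size factors. ATCG00640 had 24376, 33501 and 31423 in libraries labelled bbx14-1, against 26151, 25656 and 24389 in WT libraries (0.22, SE 0.11, limma adjusted p = 0.339); bbx14-1 replicate 1 was its lowest library. ATCG00790 had 16921, 16301 and 13949 in libraries labelled bbx14-1, against 12351, 12554 and 13930 in WT libraries (0.28, SE 0.10, limma adjusted p = 0.107), without overlap.

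ATCG00750, noted in the reference as ribosomal protein S11 of the small subunit, averaged 7194 ± 486 normalized counts in libraries labelled bbx14-1 and 6118 ± 276 in WT libraries (SD, n = 3 each; 0.23, limma adjusted p = 0.143), also without overlap. ATCG00660, noted as ribosomal protein L20 of the large subunit, averaged 6444 ± 806 in libraries labelled bbx14-1 and 5557 ± 739.5 in WT libraries (SD, n = 3 each; 0.21, limma adjusted p = 0.295). ATCG00160 was the last of those whose libraries labelled bbx14-1 all lay higher, by 0.27 on the log2 scale (limma adjusted p = 0.0796).

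The members that leaned the other way had few reads. ATCG00900 had 156, 133 and 164 normalized counts in libraries labelled bbx14-1, against 176, 183 and 215 in WT libraries (log2 fold change -0.34, SE 0.17, limma adjusted p = 0.324), and every library labelled bbx14-1 lay below every WT library. ATCG00840, the member with the fewest reads, had 18.4, 33.3 and 30 in libraries labelled bbx14-1, against 20.2, 37.7 and 37.3 in WT libraries (-0.20, SE 0.40, limma adjusted p = 0.866). As a limit of detection, 3 reads are worth 2.40 to 3.77 normalized counts in these libraries, with counting error alone considered. RefSeq places most of the coding sequence of 4 of 21 ribosomal symbols, 1 of 11 ndh symbols and 1 of 9 other symbols in sequence that occurs again in the plastid genome, so reads of those genes could be split or dropped in counting; which identifiers these are was not paired here.

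**Figure D2:**
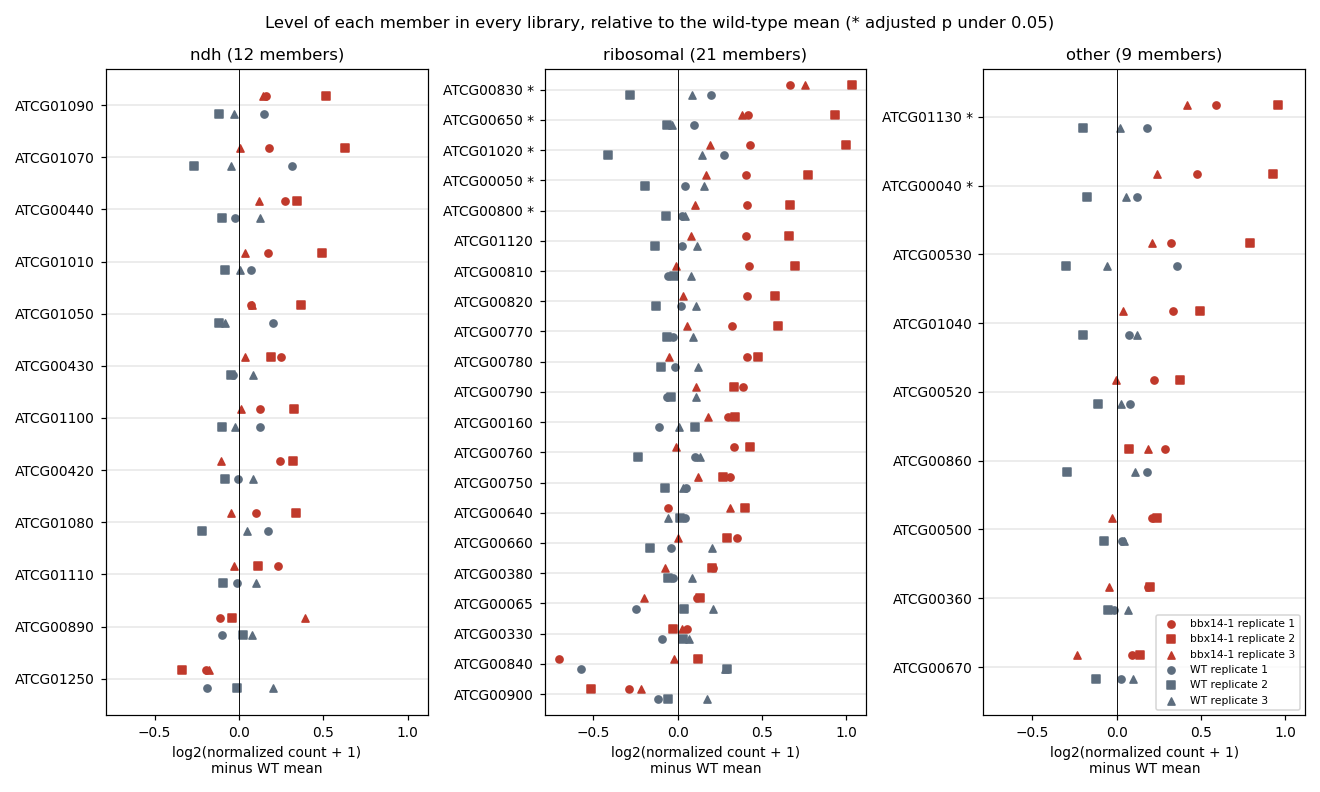
Each row is 1 member and each point 1 library, as log2(normalized count + 1) minus the mean of the 3 WT libraries; red points are libraries labelled bbx14-1, grey points WT libraries, shapes give the replicate, and a star marks an adjusted p under 0.05. The red square, bbx14-1 replicate 2, is the highest library for 29 of 42 members.

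Among the 9 other members, 2 were higher in the libraries labelled bbx14-1. ATCG01130 had the smallest adjusted p of all members, with 14301, 18488 and 12702 normalized counts in libraries labelled bbx14-1, against 10769, 8285 and 9665 in WT libraries (log2 fold change 0.65, SE 0.12, limma adjusted p = 0.00103). Every library labelled bbx14-1 lay above every WT library, and the call held whichever library was left out (limma adjusted p at most 0.00918). ATCG00040 had 103161, 140782 and 87500.1 in libraries labelled bbx14-1, against 80433, 65485 and 77005 in WT libraries (0.55, SE 0.15, limma adjusted p = 0.0355). Its groups did not overlap either, but it kept the call in only 1 of the 6 fits that leave out a library, with log2 fold changes from 0.36 without bbx14-1 replicate 2 (limma adjusted p = 0.199) to 0.70 without bbx14-1 replicate 3, where it was kept. Of its lost calls, 3 came with a larger fold change than with all libraries, 0.58 without bbx14-1 replicate 1, 0.61 without WT replicate 1 and 0.58 without WT replicate 3.

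The other 7 members of this class overlapped between groups, with log2 fold changes from -0.00011 to 0.44. ATCG00530, noted as related to the proton extrusion protein CemA, had 37777, 52271 and 34949 normalized counts in libraries labelled bbx14-1, against 38648, 24522 and 29091 in WT libraries (0.44, SE 0.15, limma adjusted p = 0.09). ATCG00670, noted as the plastid-encoded Clp protease subunit, had 67276, 69695 and 53821 in libraries labelled bbx14-1, against 64378, 58023 and 67574 in WT libraries. Its lowest library was bbx14-1 replicate 3 and the groups were mixed (limma adjusted p = 1). ATCG00520 had 40544, 45127 and 34732 in libraries labelled bbx14-1, against 36765, 32270 and 35412 in WT libraries (0.20, SE 0.11, limma adjusted p = 0.393).

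The libraries numbered 2 stood at opposite ends for most members. Replicate 2 of the libraries labelled bbx14-1 was the highest of the 6 for 29 of 42 members, against 18.8% of all genes tested, and WT replicate 2 was the lowest for 29 of 42, against 17.1% of all genes. The high place of bbx14-1 replicate 2 was not particular to the members. Of the 76 plastid genes tested that are no members, it was the highest library for 47, and WT replicate 2 was the lowest for 22. The median log2 level of the ndh members, relative to the WT mean of each gene, was 0.17, 0.33 and 0.02 in libraries labelled bbx14-1, against 0.04, -0.10 and 0.06 in WT libraries. The median of the ribosomal members was 0.35, 0.43 and 0.06 in libraries labelled bbx14-1, against -0.02, -0.06 and 0.11 in WT libraries. That of the other members was 0.29, 0.38 and 0.04 in libraries labelled bbx14-1, against 0.08, -0.18 and 0.06 in WT libraries. In each class bbx14-1 replicate 3 lay below at least 1 WT library, so the class medians overlapped between groups. The plastid genes that are no members ordered the libraries labelled bbx14-1 in the same way, at 0.11, 0.25 and -0.05, against 0.02, -0.06 and 0.05 in WT libraries.

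**Figure D3:**
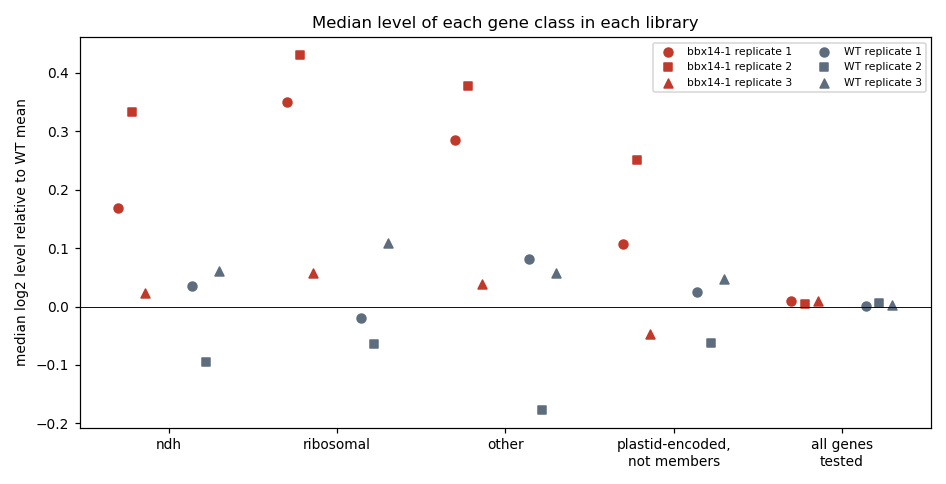
Points give the median over the genes of a class of the log2 level relative to the WT mean, for each library; red points are libraries labelled bbx14-1 and grey points WT libraries. In the 3 member classes bbx14-1 replicates 1 and 2 lie above the WT libraries and replicate 3 among them, while the median of all 19003 genes stays near 0 in every library.

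The counts of called members moved with these libraries. Without bbx14-1 replicate 3, 12 ribosomal and 4 other members were called higher, where 1.83% of all genes were. The ribosomal count was 2 without bbx14-1 replicate 1, bbx14-1 replicate 2 or WT replicate 2, and 3 without WT replicate 1 or WT replicate 3. The count of other members was 1 without bbx14-1 replicate 1, bbx14-1 replicate 2, WT replicate 2 or WT replicate 3, and 2 without WT replicate 1. No ndh member was called in any of these fits. Both libraries numbered 2 were left out together after they had been seen at these extremes, which leaves 2 libraries a group and lowers the differences of the members by the choice itself, so no support is drawn from it. In that fit no member of any class was called, where 1.45% of all genes were called higher, and the class medians were 0.04 (ndh), 0.16 (ribosomal) and 0.09 (other). Over all genes, the count called fell to 525 without WT replicate 1 and to 577 without WT replicate 3, beside 883, or 4.65%, with all libraries.

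The fold changes are relative to the scaling between libraries. With size factors taken from the plastid genes, which include the members and so centre them near 0 by construction, the median of all genes moved to -0.17 and the class medians to -0.01 (ndh), 0.11 (ribosomal) and 0.03 (other); ATCG00830 and ATCG01130 were still called higher, where 0.631% of all genes were. The split of calls over all genes was then 120 higher and 601 lower, and 313 higher and 166 lower with the summed plastid reads held equal, beside 477 higher and 406 lower with the authors' size factors.

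**Figure D4:**
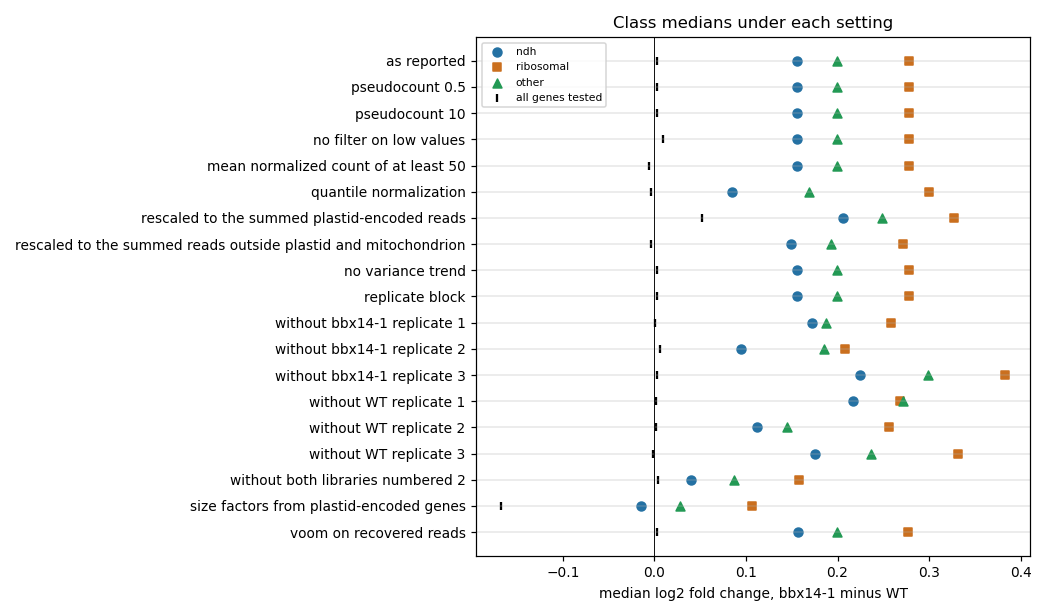
Each row is 1 setting of the analysis, and the points give the median log2 fold change, libraries labelled bbx14-1 minus WT, of the ndh, ribosomal and other members and of all genes tested. The ribosomal median lies above the ndh median in each of the 19 settings, and the lowest class medians stand in the fits with plastid size factors and without both libraries numbered 2.

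The share of all plastid reads that a class takes does not depend on the scaling between libraries. The ndh members took 2.67 ± 0.0874% of plastid reads in libraries labelled bbx14-1 and 2.29 ± 0.124% in WT libraries (SD, n = 3 each). The ribosomal members took 2.08 ± 0.0839% in libraries labelled bbx14-1 and 1.80 ± 0.0951% in WT libraries. The other members took 2.30 ± 0.164% in libraries labelled bbx14-1 and 1.80 ± 0.0841% in WT libraries. The groups did not overlap in any of the 3 classes, and the differences were 0.39, 0.28 and 0.50 percentage points (ndh, ribosomal and other). These shares are sums led by the members with the most reads and are given without a test.

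The same shares reflect how much the most abundant plastid messages took. ATCG00020 and ATCG00490 together held 61.4%, 61.3% and 59.8% of plastid reads in libraries labelled bbx14-1, against 64.8%, 62.9% and 65.2% in WT libraries. With the 10 most abundant plastid genes left out of the total, the ndh members took 14.8 ± 0.361% in libraries labelled bbx14-1 and 14.5 ± 0.887% in WT libraries, and the ribosomal members 11.6 ± 0.567% in libraries labelled bbx14-1 and 11.4 ± 0.645% in WT libraries, both with overlap between groups. The other members took 12.7 ± 0.772% in libraries labelled bbx14-1 and 11.4 ± 0.466% in WT libraries, still without overlap (SD, n = 3 each).

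**Figure D5:**
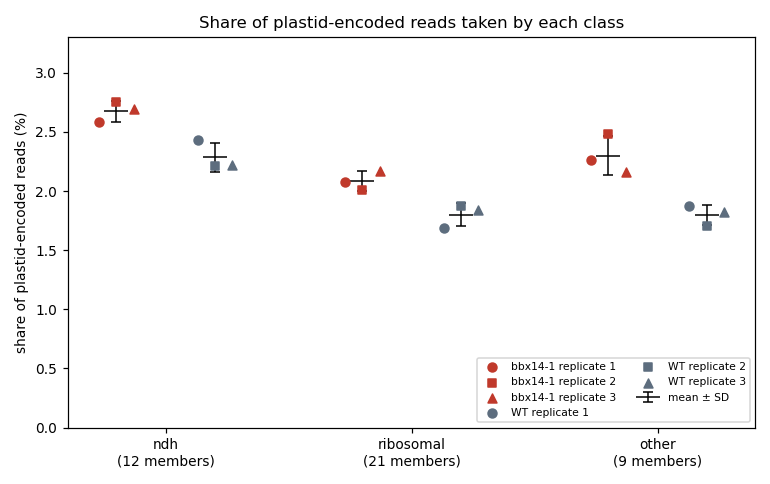
Points give the share of all plastid-encoded reads, in percent, taken by each class in each library; red points are libraries labelled bbx14-1, grey points WT libraries, and black bars the mean with its SD. In each class the 3 libraries labelled bbx14-1 lie above the 3 WT libraries.

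Of the nuclear partners of these genes, 1 passed the test, where 4.65% of all genes tested did. Of 18 nuclear subunits of the NDH complex 17 were tested and none was called (limma; 3 at an unadjusted p under 0.05, where 16.7% of all genes were, and a median log2 fold change of -0.11); NdhN, a subunit of the stromal part of the complex, averaged 197 ± 18.8 normalized counts in libraries labelled bbx14-1 and 271 ± 15.3 in WT libraries (-0.47, limma adjusted p = 0.0764). None was called among 15 NDH assembly and RNA factors (limma; 3 at an unadjusted p under 0.05, median 0.08), 13 nuclear Clp subunits (limma; 0 at an unadjusted p under 0.05, median -0.03), 4 nuclear subunits of acetyl-CoA carboxylase (limma; 2 at an unadjusted p under 0.05, median 0.18) or 9 partners of Ycf1 and Ycf2 (limma; 1 at an unadjusted p under 0.05, median 0.13). The 6 assembly partners of photosystem I and cytochromes had a median of -0.16, and all 6 fold changes were below 0. Of these partners, 3 were lower without overlap, where 10.6% of all genes were. In this list 1 gene was called lower, where 2.14% of all genes were. It was CcdA, a thylakoid protein of cytochrome assembly (log2 fold change -0.52, SE 0.13, limma adjusted p = 0.0181). CcdA averaged 350.3 ± 51.1 normalized counts in libraries labelled bbx14-1 and 499 ± 30.2 in WT libraries (SD, n = 3 each). Whether any of these lists differed from the members was not tested.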

How the data were processed

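The authors deposited normalized counts, that is, gene reads scaled by the size factor of their library, in 1 table of 36917 genes and 6 libraries. DESeq2, featureCounts, TopHat2 2.1.1, Trimmomatic and FastQC are named, with the build TAIR10, in the submitters' processing notes; how strand and multiply matching reads were handled is not given in the sources here. Every value was a whole multiple of its library's smallest value above 0 within a tolerance of 0.01, so reads were recovered for 100% of values; genes with a mean of at least 10 entered a fit on log2(normalized count + 1) by limma 3.58.1 (R 4.3.3), with variances following a trend, two-sided, Benjamini-Hochberg over all genes. Fold changes are bbx14-1 minus WT, and this scale understates changes of low genes. The fit was tested on simulated data in which genes varied independently. The members moved together by library, so no support for their calls is drawn from that test.

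The named members are those called, the 3 with the highest mean and the 2 with the largest absolute fold change of each class; members described by a reference note, those with the fewest reads and those without overlap were added after their values were seen. The members and lists were chosen with earlier results of these data known. The tables used pair no plastid identifier with a symbol, so coordinates, sequences, levels per length and lists of polymerase and photosynthesis genes of the plastid are not reported here. Alternatives changed the pseudocount, filter, scaling, variance trend, replicate block and libraries. Libraries with the same number did not deviate together, so the numbers were not taken as pairs.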

Additional observations from a re-analysis of the deposited data

How the results depend on the processing

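No ndh member was called under any of the 18 alternatives. The 5 ribosomal and 2 other members called stayed within 1.5 times of those counts, or moved as follows. Without a filter on low values 3 ribosomal members and 1 other member were called. Quantile normalization left 1 other member, as did rescaling to the summed plastid reads, under which 479 genes were called in all. Rescaling to the reads outside plastid and mitochondrion left 3 ribosomal members. Without a variance trend 28 genes and 0 members were called. Leaving out 1 library gave 525 to 766 genes in all, 2 to 12 ribosomal and 1 to 4 other members. With the replicate number as a block, 915 genes, 5 ribosomal and 2 other members were called. The deviations of same-numbered libraries correlated at 0.042, 0.017 and -0.030. The numbers were therefore not taken as pairs, which does not show that same-numbered samples were handled apart. Of alternatives chosen after seeing the data, leaving out both libraries numbered 2 gave 500 genes and 0 members, plastid size factors gave 1 ribosomal and 1 other member, and limma voom on recovered reads gave 898 genes with the same 7 members. Planned edgeR and DESeq2 tests were not run, since the table was entered as normalized values and not as counts; limma voom on the recovered reads took their place.

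ATCG01130 and ATCG00830 kept their calls in 16 of 18 alternatives, ATCG00650 in 15, ATCG00050 in 11, ATCG01020 in 8, ATCG00040 in 7 and ATCG00800 in 6. Signs turned for members that were not called. ATCG00330 was at -0.0866 under quantile normalization, -0.154 with plastid size factors, and between -0.0295 and 0.049 when single libraries were left out. ATCG00670 was at 0.0491 with the summed plastid reads held equal, 0.000222 under voom, and between -0.0707 and 0.116 when single libraries were left out. Without both libraries numbered 2, ATCG01070 was at -0.0446 and ATCG01080 at -0.0844; with plastid size factors ATCG01080 was at -0.0411 and ATCG01100 at -0.016. The difference in share was 0.19 (ndh), 0.13 (ribosomal) and 0.25 (other) percentage points of all reads. Without the 10 most abundant plastid genes it was 0.32 (ndh), 0.14 (ribosomal) and 1.33 (other) percentage points of the remaining plastid reads. These totals differ in size, so the points cannot be compared between settings. The other members took 12.7% of the remaining plastid reads in libraries labelled bbx14-1 and 11.4% in WT libraries. Of all plastid reads they took 2.30% and 1.80%. The causes were not tested. The depth allows no statement on differences of ATCG00840, whose counts lie near 30.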

Other observations

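ATCG01310, which is no member, is noted in the reference as ribosomal protein L2. RefSeq annotates rpl2, the gene of this protein, at 2 places with the same sequence, so its reads could be split or dropped. Whether a member is the other copy could not be checked here, so the counts of ATCG01310 may not stand for the whole gene. ATCG01310 had 80, 80.6 and 101 normalized counts in libraries labelled bbx14-1, against 95.9, 98.0 and 129 in WT libraries (log2 fold change -0.30, SE 0.22, limma adjusted p = 0.555), and the groups overlapped.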
